A study of Mus musculus with 17 samples.

Results

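The cytosolic ribosome and its translation factors were examined in 17 RNA-Seq libraries of thioglycollate-elicited peritoneal macrophages. Members were found by gene symbol alone, with no expression value used. They were the genes for proteins of the large and small ribosomal subunits (symbols Rpl, Rps and Rplp with their numbered paralogs) and the genes whose symbols begin with Eif1 to Eif6, Eef1 or Eef2. Kinases that share these letters, Rps6k and Eif2ak, were left out, as was Rps19bp1. The rule found 151 of the 21683 rows of the table, 84 for ribosomal proteins and 67 for factors, and 144 of them (82 and 62) were expressed highly enough to be tested. The 7 members not tested were Rpl10l, Rpl3l, Eif4a3l1, Eif4a3l2, Eif4e1b, Eef1akmt3 and Eef1a2.

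All mice were on the C57BL/6 background, male by the study's methods, and 8 weeks old by the labels, and carried floxed IKKβ alleles (IKKβF/F, here F/F). In the ΔMye mice, a Cre recombinase expressed from the LysM locus in myeloid cells deletes IKKβ, a kinase that activates NF-κB. Macrophages attached to plastic for 4 h and then received PBS or 100 nM Tat, the HIV transactivator protein, for 12 h. The groups were F/F given PBS (F/F PBS, libraries 1 to 6, n = 6), F/F given Tat (F/F Tat, libraries 7 to 12, n = 6) and ΔMye given Tat (ΔMye Tat, libraries 19 to 23, n = 5). ΔMye macrophages given PBS are not analysed here, so an effect of the deletion on the response to Tat cannot be told apart from one present without Tat. The labels do not say that each library came from its own mouse, while the study's heat map legend describes its columns as mouse replicates. The p-values measure the spread between these libraries.

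A ribosome is built from a small (40S) and a large (60S) subunit, and the proteins of both are needed in nearly equal numbers. Initiation factors (eIFs) bring the initiator tRNA and the capped mRNA to the 40S subunit and then let the 60S subunit join. Elongation factors (eEFs) deliver aminoacyl-tRNA and move the ribosome along the message. In mammals the mRNAs for ribosomal proteins and many factors start with a run of pyrimidines (the 5′ terminal oligopyrimidine or TOP motif), through which their translation responds to mTORC1. In activated macrophages, control of initiation is known to shape which inflammatory mRNAs are translated. The data here are mRNA levels and do not measure translation.

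Values were TPM, Salmon's relative transcript abundances, which are per unit of transcript length and can be compared between genes. TPM are shares of a fixed total, so a group in which a few genes take more leaves less for the rest. The sum of the listed genes was 889318 to 903576 TPM per library, and the number of reads behind it is unknown. Median-ratio scale factors came from the 11246 genes above 0 in all libraries, and what moved them was not tested. They were 1.25 to 1.34 (F/F PBS), 0.797 to 0.850 (F/F Tat) and 0.895 to 1.01 (ΔMye Tat), so the scale moved with the groups. Each difference was therefore measured on 3 scales. These were TPM as deposited, TPM divided by the median-ratio factor (library-scaled), and TPM relative to the median ribosomal protein gene of the same library (ribosome-relative), which no scaling of a library can move. A gene was called at an adjusted p under 0.01 over all 10451 genes tested, and it is said to have risen or fallen on a scale only where it was called on it. Ikbkb, which encodes IKKβ (chromosome 8, 22659212 to 22706589, GRCm38), was 24.5 to 30.1 TPM in F/F PBS, 21.6 to 25.4 in F/F Tat, and 19.9, 16.3, 15.6, 17.5 and 12.8 in the 5 ΔMye Tat libraries. It was lower in ΔMye Tat than in F/F Tat with no overlap (log2 -0.51, adjusted p = 4.5e-05), and transcript outside the deleted part of the gene counts toward these values.

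Ribosomal protein mRNAs were among the most abundant in F/F PBS macrophages, and most of them lay at like levels. Of the 84 genes, 64 had a mean between 500 and 2500 TPM in F/F PBS, with a median over the genes of 1250 TPM. Rplp1, a protein of the stalk that recruits elongation factors, was the highest at 3943 TPM. Factor genes were far lower, with a median of 54.6 TPM, and 44 of the 67 had a mean under 100 TPM. The exception was Eef1a1, the protein that delivers aminoacyl-tRNA, at 7118 ± 92.8 TPM (SD, n = 6), which made up 48.4% to 49.3% of the summed factor TPM in F/F PBS.

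A few ribosomal protein genes were listed far below the rest. Rpl5, a 60S protein that binds 5S rRNA, was 7.07 ± 1.28 TPM and Rpl12, a 60S protein at the base of the stalk, was 10.2 ± 0.956 TPM in F/F PBS (SD, n = 6). Rps20 of the 40S subunit was 107 ± 2.13 TPM. Rps27 of the 40S subunit varied between 12.1 and 348 TPM among the 6 F/F PBS libraries, whereas its near-copy Rps27rt was at a mean of 3789 TPM. Of the 31-base words in the Rps27rt transcripts, 92.7% also occur in other genes, most often Rps27, so reads could be divided between these genes in any proportion. Over the 84 ribosomal protein genes the median share of such words was 23.5%, many of them shared with pseudogenes, and 7 genes were above 50% (Rps27rt, Rpl36, Rps3a1, Rplp1, Rpl19, Rpl24 and Rpl23a). Among the 64 factors found in the annotation the median was 3.71%. Rpl5 (26.9%) and Rpl12 (19.1%) had ordinary shares, and the part of shared sequence in their low values was not tested.

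**Figure D1:**
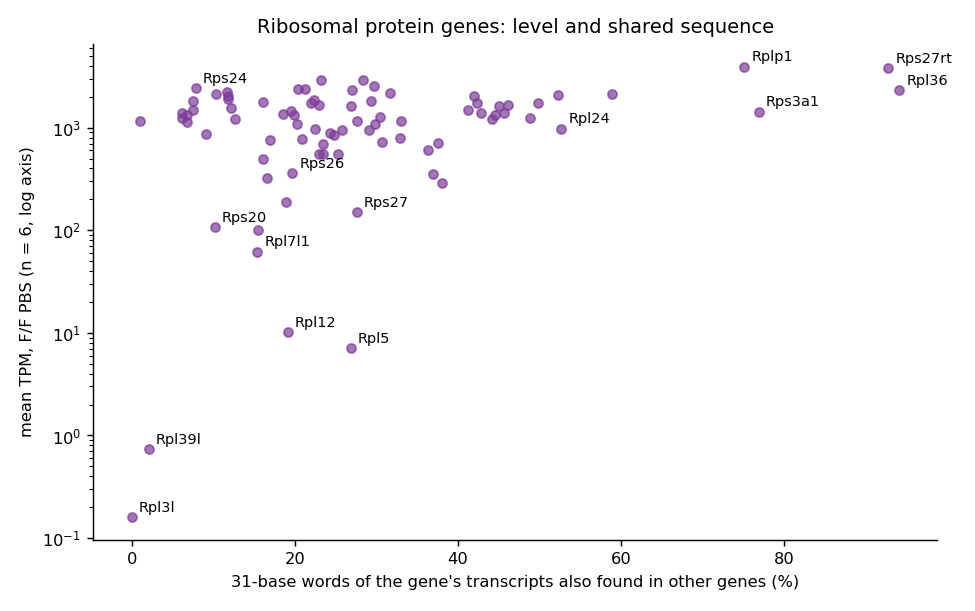
Mean TPM in F/F PBS (vertical log axis, n = 6) against the percent of 31-base words of a gene's transcripts that occur in other genes (horizontal axis), 1 point for each ribosomal protein gene above 0. Most genes lie near 1000 TPM whatever their share, while Rpl5 and Rpl12 lie near 10 TPM and the paralogs Rpl39l and Rpl3l under 1 TPM.

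Start-site sequence set the ribosomal proteins apart from the other genes as a description, since TOP mRNAs are defined by it. RefSeq promoters (GRCm38.p6) were matched for 114 of the 151 members, 64 ribosomal proteins and 50 factors. A run of at least 8 pyrimidines (C or T, coding strand) lay between 20 bases before and 30 bases after a start site in 34 of the 64 ribosomal protein genes (53.1%), in 14 of the 50 factors (28%) and in 21.5% of all 27025 genes. The letters CCGGAAG, on either strand within 300 bases around the start, were present in 39.1%, 32% and 9.93%, and TATAAA in 10.9%, 10% and 15.7%. The windows below, 15 bases before and 15 from the start site on, show the run in capitals for a ribosomal protein of each kind and for Eef1a1. Rpl24, the ribosomal protein gene that rose most with Tat, has no such run in its window. Neither have Rplp0, Rps2 and Rps3, which fell with Tat on TPM as deposited, and a link between the run and the response was not tested.
Rps6 (chr4:86857353-86857382, minus strand): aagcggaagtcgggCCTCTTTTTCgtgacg
Rps27 (chr3:90213634-90213663, minus strand): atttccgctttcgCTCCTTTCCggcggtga
Rpl14 (chr9:120571502-120571531, plus strand): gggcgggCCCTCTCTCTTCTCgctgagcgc
Rpl15 (chr14:18270972-18271001, minus strand): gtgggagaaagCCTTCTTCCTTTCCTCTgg
Rplp2 (chr7:141447636-141447665, plus strand): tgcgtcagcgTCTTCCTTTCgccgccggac
Eef1a1 (chr9:78481710-78481739, minus strand): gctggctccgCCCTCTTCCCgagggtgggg
Rpl24 (chr16:55966260-55966289, plus strand): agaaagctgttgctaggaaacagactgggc

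The ribosomal proteins together took a smaller share of the transcripts in both Tat groups. Their summed TPM was 104583 to 113310 in F/F PBS (11.7% to 12.7% of all listed TPM), 77011 to 85502 in F/F Tat (8.53% to 9.47%) and 82356 to 89018 in ΔMye Tat (9.19% to 9.91%). The factors summed to 14466 to 14734 TPM, 11707 to 12036 TPM and 12627 to 12819 TPM in the same order, with no overlap between the 3 groups. The ratio of the ribosomal protein sum to the factor sum was 7.13 to 7.77 (F/F PBS), 6.58 to 7.10 (F/F Tat) and 6.52 to 7.01 (ΔMye Tat). It was thus higher in every F/F PBS library than in every Tat library, and the F/F Tat and ΔMye Tat libraries overlapped. The ratio of 60S to 40S sums stayed close to 1.35, with means of 1.36 ± 0.0055 (SD, n = 6), 1.35 ± 0.00832 (n = 6) and 1.34 ± 0.0113 (n = 5). Both subunits moved in nearly equal proportion.

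**Figure D2:**
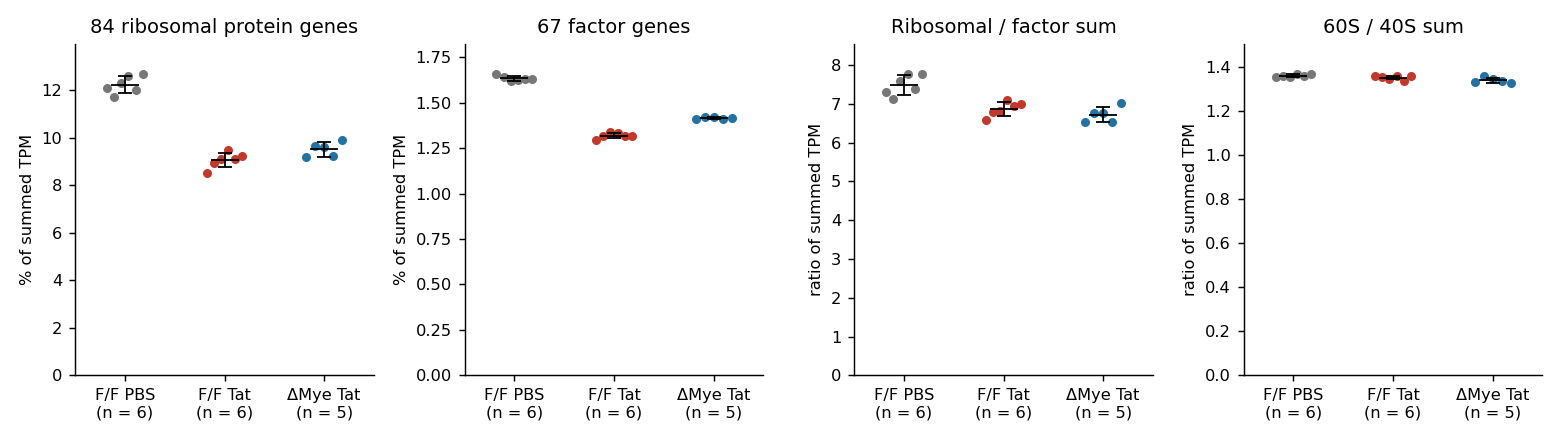
Share of summed TPM taken by the 84 ribosomal protein genes and by the 67 factor genes (percent), the ratio of these sums, and the ratio of 60S to 40S sums, in each library. Points are libraries and bars are the mean ± SD; the ribosomal share falls from 11.7% to 12.7% in F/F PBS to 8.53% to 9.47% in F/F Tat, whereas the subunit ratio lies near 1.35 in all 3 groups.

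With Tat, ribosomal protein genes moved as a block on TPM as deposited. In F/F Tat against F/F PBS, 72 of the 82 tested fell, 2 rose, Rpl24 among them, and 8 were not called, while 67.6% of all genes tested fell and 17% rose. Their median log2 fold change was -0.45, against -0.65 over all genes tested and -0.14 over the 1164 genes with a mean of at least 100 TPM, the range in which 78 of the ribosomal protein genes lie. They were thus lower by less than the typical gene and by more than the typical abundant gene. The direction of the block depended on the scale. After library scaling its median was 0.18, and 41 of 82 rose and 4 fell, against 37.1% and 38.1% of all genes. With scale factors from the genes at a mean of at least 10 TPM, an alternative added after seeing the data, 14 rose and 15 fell with a median of -0.01. No fold change of a ribosomal protein gene exceeded 3-fold in either direction in this comparison, where 5.21% of all genes were called above and 19.4% below that size.

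The log2 fold changes of the ribosomal protein genes with Tat lay close to one another whatever the scale. Of the 82, 63 (76.8%) were within 0.25 log2 units of their own median, compared with 25 of 62 factors (40.3%) and 22.6% of all genes. Among genes with a mean of at least 100 TPM the shares were 80.8% of 78 ribosomal protein genes, 36% of 25 factors and 19.7% of all 1164 genes. On the ribosome-relative scale 18 ribosomal protein genes were called above their block and 24 below it, against 26.7% and 45.8% of all genes.

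Rpl24 stood above the block on all 3 scales, and 17% of all genes rose on all 3. Rpl24 is a 60S protein at the subunit interface (ENSMUSG00000098274, chromosome 16). It was 928 to 1016 TPM with a median of 987 in F/F PBS, 1234 to 1347 TPM with a median of 1293 in F/F Tat, and 1344, 1408, 1466, 1465 and 1513 TPM in ΔMye Tat. Every Tat library was above every PBS library, and the log2 fold change was 0.40 ± 0.0324 (SE, adjusted p = 6.4e-10) on TPM as deposited and 0.82 relative to the median ribosomal protein gene. Of its 31-base words, 52.7% occur in other genes, most often the annotated gene Gm28037. Rps24 of the 40S subunit was not called on TPM as deposited (2414 ± 98.6 against 2325 ± 92.7 TPM, SD, n = 6 each) and was 0.36 above the median ribosomal protein gene (adjusted p = 3.4e-08). Rpl22l1, a paralog of Rpl22, was likewise not called as deposited (100 ± 4.48 against 108 ± 11.1 TPM) and was 0.52 above the block (adjusted p = 5.6e-08). Rpl22 itself fell to 764 ± 59.0 TPM from 1123 ± 49.8 as deposited and was 0.14 below the block (adjusted p = 0.0031). The order of this paralog pair was not reversed, since Rpl22 remained the more abundant in every library.

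The 60S genes Rpl5, Rpl12, Rpl13 and Rpl14 fell on all 3 scales, where 38.1% of all genes did. Rpl14 was 650 to 764 TPM with a median of 745 in F/F PBS and 372 to 412 TPM with a median of 406 in F/F Tat (log2 -0.86 ± 0.0390, adjusted p = 6.1e-14). Rpl5 was 5.33 to 9.20 TPM in F/F PBS and 1.53 to 4.52 TPM in F/F Tat (log2 -1.43 ± 0.227, adjusted p = 8.5e-06), and Rpl12 was 8.58 to 11.1 and 4.13 to 5.54 TPM (log2 -1.05 ± 0.125, adjusted p = 1.7e-07). The F/F PBS and F/F Tat libraries did not overlap for these 4 genes, and Rpl5 and Rpl12 are the members with the low listed levels described above. The share of all genes with no overlap is not given, here or for other genes described so. Rpl13a, the 60S protein known as part of an interferon-induced complex that silences translation, was 2332 to 3231 TPM in F/F PBS and 1446 to 1800 TPM in F/F Tat (log2 -0.84 ± 0.0706, adjusted p = 1.1e-09) and was 0.42 below the block, and it was not called after library scaling. Rps26 (log2 -1.09 ± 0.358, adjusted p = 0.0079) overlapped between the groups, at 229 to 493 and 80.2 to 370 TPM. Its call was lost in 9 of the 17 fits that each left out 1 library, those without F/F PBS library 2, 3, 4, 5 or 6 or F/F Tat library 9, 10, 11 or 12. Rplp0, Rpl3 and Rps6, which serve in many studies as reference or marker mRNAs, differed from the block by -0.09, -0.33 and 0.09. The fallen 40S and 60S genes were 26 of 30 and 41 of 43, and all 3 stalk genes fell on TPM as deposited, where 67.6% of all genes fell.

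Factor genes diverged from one another with Tat, in contrast to the ribosomal proteins. On TPM as deposited 43 of the 62 tested fell, 11 rose and 8 were not called, with a median of -0.36, and these counts were near the shares of all genes (67.6% fell and 17% rose). On the ribosome-relative scale 23 rose and 21 fell, with a median of 0.06, beside 26.7% and 45.8% of all genes and an all-gene median of -0.24. After library scaling 34 rose and 14 fell, beside 37.1% and 38.1%. On all 3 scales together 11 rose (17.7%) and 14 fell (22.6%), beside 17% and 38.1% of all genes. Below, a factor is said to have risen or fallen on all scales where this holds.

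**Figure D3:**
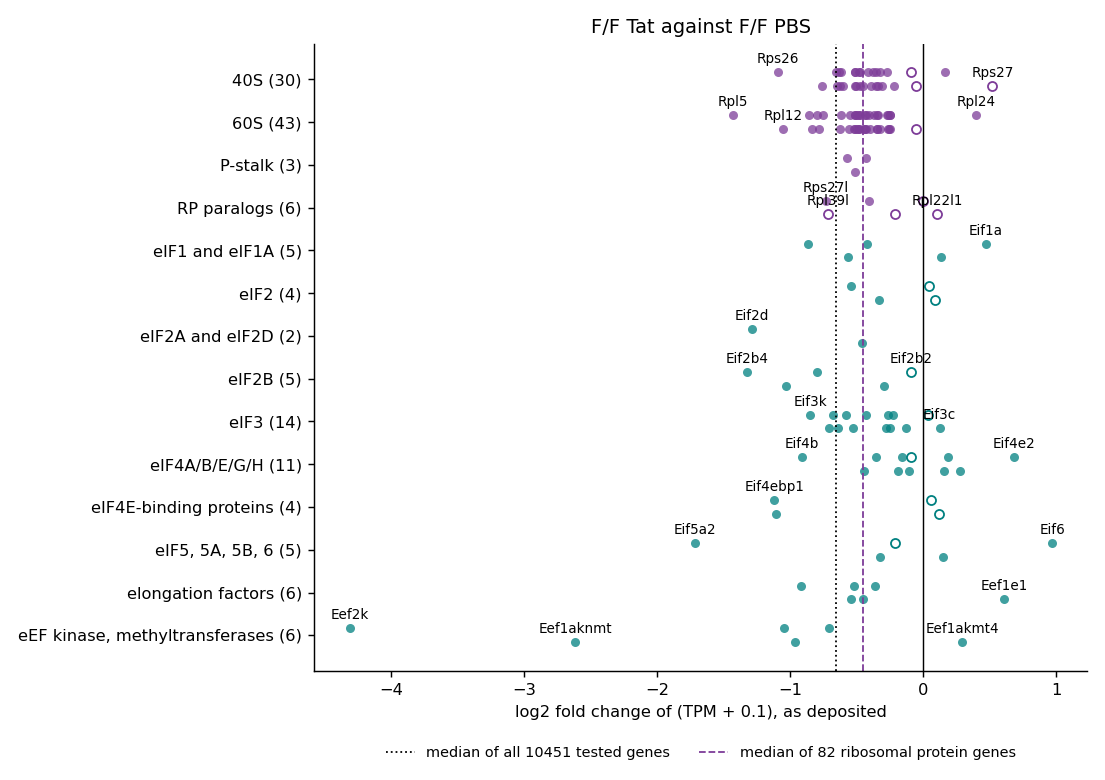
Log2 fold change of TPM + 0.1 as deposited, F/F Tat against F/F PBS (horizontal axis), for the 144 tested members grouped by role (vertical axis, number tested in parentheses). Filled points have an adjusted p under 0.01 and open points do not; ribosomal proteins (purple) cluster near their median of -0.45 (dashed line), right of the median of all genes at -0.65 (dotted line), and factors (green) spread from Eef2k at -4.31 to Eif6 at 0.97.

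Eif6 rose more than any other member. It encodes the factor that binds free 60S subunits and keeps them from joining 40S subunits (ENSMUSG00000027613, chromosome 2). It was 116 to 135 TPM with a median of 130 in F/F PBS, 235 to 276 TPM with a median of 247 in F/F Tat, and 244, 237, 235, 227 and 249 TPM in ΔMye Tat. Every Tat library of either genotype was above every PBS library. The log2 fold change was 0.97 ± 0.0413 (SE, adjusted p = 2.3e-14) as deposited and 1.39 ± 0.0379 relative to the median ribosomal protein gene (adjusted p = 7.6e-18). Eif5, which triggers GTP hydrolysis on eIF2, also rose on all scales (95.1 ± 5.52 to 106 ± 4.60 TPM). Eif5a, which relieves stalled ribosomes, fell to 523 ± 22.5 from 656 ± 16.5 TPM as deposited, rose after library scaling (log2 0.30) and was not called against the block. Its low-level paralog Eif5a2 fell on all scales, from 2.19 to 3.07 TPM to 0.515 to 0.958 TPM.

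The eIF4 genes, for factors that recognise the mRNA cap and unwind the leader, tended to lie above the ribosomal protein block. Of the 11 tested, 8 were called above it and 1 below, beside 26.7% and 45.8% of all genes. Eif4e2, which encodes a cap-binding protein (4EHP) that represses translation, was 69.6 to 82.4 TPM with a median of 74.7 in F/F PBS and 113 to 127 TPM with a median of 122 in F/F Tat (log2 0.68 ± 0.0438, adjusted p = 1.6e-11). In ΔMye Tat it was 110, 104, 111, 112 and 117 TPM, above all PBS libraries. Eif4e, the cap-binding subunit of eIF4F, rose less, at 107 ± 5.63 and 120 ± 9.70 TPM with overlap (log2 0.16, adjusted p = 0.0048). That call was lost in 7 of the 17 fits that each left out 1 library (without F/F PBS library 2, 3, 4 or 6 or F/F Tat library 8, 9 or 10), while against the block Eif4e was 0.58 higher (adjusted p = 1.6e-09). The scaffold Eif4g1 was not called as deposited (93.8 ± 8.33 and 87.8 ± 5.74 TPM) and was 0.32 above the block. The helicase Eif4a1 fell as deposited (781 ± 21.5 to 698 ± 21.2 TPM) and was 0.25 above the block, so its direction depended on the scale. Eif4b, which stimulates that helicase, was the 1 eIF4 gene below the block and fell on all scales (93.9 ± 3.38 to 49.97 ± 1.96 TPM). It was chosen for mention after its values were seen, as were the genes Eif1, Eif1b, Eif2b1, Eif2b2, Eif3c, Eif3d, Eif3k, Eif5, Rpl13 and the elongation factors other than Eef1a1, Eef2 and Eef1e1.

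The mRNAs of the eIF4E-binding proteins, which sequester eIF4E until mTORC1 phosphorylates them, fell for the main forms. Eif4ebp1 was 47.7 to 58.0 TPM with a median of 56.3 in F/F PBS and 22.8 to 28.2 TPM with a median of 24.5 in F/F Tat, with no overlap (log2 -1.12 ± 0.0649, adjusted p = 3.2e-12). Eif4ebp2 was 19.2 to 31 TPM with a median of 24.1 in F/F PBS and 9.92 to 12.2 TPM with a median of 11.2 in F/F Tat (log2 -1.10 ± 0.0880, adjusted p = 4.7e-10). Both fell on all scales, by 0.70 and 0.69 relative to the block. Eif4ebp3 was listed between 0 and 3.86 TPM and was not called, and 66.4% of its 31-base words occur in other genes.

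Subunits of the same complex did not move together. eIF2B reloads eIF2 with GTP and is built from 5 different subunits. Eif2b4, Eif2b1 and Eif2b3 fell on all scales, with log2 fold changes as deposited of -1.32, -1.03 and -0.80, whereas Eif2b2 was not called (29.7 ± 1.08 and 27.8 ± 2.12 TPM) and Eif2b5, the catalytic subunit, fell as deposited (29.0 ± 1.57 to 23.6 ± 1.70 TPM) but not against the block (log2 0.12, adjusted p = 0.13). For Eif2b4 the libraries were 13.5 to 16.2 TPM in F/F PBS and 4.92 to 7.23 TPM in F/F Tat. Of the 4 tested eIF2 subunit genes, Eif2s1, the subunit that stress kinases phosphorylate, was 38.5 ± 1.19 and 41.1 ± 1.58 TPM, was not called as deposited, and was 0.51 above the block. Eif2d, a factor for non-canonical initiation and recycling, fell on all scales (12.6 to 14.9 TPM and 4.75 to 6.59 TPM, log2 -1.29 ± 0.0783).

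In eIF3, the large scaffold that holds the 40S subunit, 12 of 14 genes fell and 1 rose as deposited, and 5 were above and 5 below the block. Of all genes, 67.6% fell and 17% rose as deposited, and 26.7% were above and 45.8% below the block. Eif3c, a core subunit, rose on all scales (233 ± 8.82 to 254 ± 6.71 TPM), while Eif3k, a peripheral subunit, fell on all scales (313 ± 10.6 to 174 ± 9.41 TPM). Eif3a, the largest subunit, fell to 69.1 ± 3.55 from 113 ± 7.99 TPM and was 0.29 below the block. Eif3d, which can itself contact the cap, was 0.46 above it. Among the start-site selection factors, Eif1a (log2 0.47 ± 0.0424, 84.9 to 102 and 122 to 137 TPM) and Eif1 (414 ± 14 to 455 ± 14.6 TPM) rose on all scales and Eif1b, a paralog of Eif1, fell on all scales (58.6 ± 3.07 to 32.1 ± 1.78 TPM).

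Of the 6 elongation factor genes tested, 5 fell and 1 rose as deposited, and 2 were below and 1 above the ribosomal protein block. Of all genes, 67.6% fell and 17% rose as deposited, and 45.8% were below and 26.7% above the block. The abundant Eef1a1 and Eef2 were not called against it. Eef1a1 was 7031 to 7235 TPM in F/F PBS and 5414 to 5668 TPM in F/F Tat (log2 -0.36 ± 0.0187), and relative to the block it differed by 0.05 (adjusted p = 0.054). Eef2, the translocase, fell to 642 ± 8.16 from 880 ± 33.4 TPM and differed from the block by -0.04 (adjusted p = 0.50). After library scaling both were called higher. Eef1d, a subunit that reloads eEF1A, fell on all scales (183 ± 11.9 to 96.6 ± 6.13 TPM). Eef1e1, which despite its symbol encodes a scaffold protein of the tRNA synthetase complex, rose on all scales (11.8 to 14.4 and 19.4 to 21.1 TPM, log2 0.61 ± 0.0565).

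Among the members, genes that modify elongation factors held the largest decreases. Eef2k, the kinase that phosphorylates eEF2 and slows elongation (ENSMUSG00000035064, chromosome 7), was 5.65 to 10.8 TPM with a median of 7.70 in F/F PBS and 0.189 to 0.569 TPM with a median of 0.233 in F/F Tat. The log2 fold change was -4.31 ± 0.329 (SE, adjusted p = 2.3e-10) on the log2(TPM + 0.1) scale, which understates the change of low genes. In ΔMye Tat it was 0.803, 0.197, 1.75, 0.712 and 0.976 TPM, below every PBS library. Eef1aknmt, a methyltransferase of eEF1A, fell from 2.25 to 3.38 TPM to 0.235 to 0.567 TPM (log2 -2.62). These genes and Eif5a2 were the 3 of 62 tested factors that fell by more than 3-fold, while 19.4% of all genes did. All 3 passed the expression filter without F/F Tat, in which no library reached 1 TPM, and Eef1aknmt passed through F/F PBS alone, so a difference was built into their selection. Eef1akmt4, listed as another methyltransferase of eEF1A, rose on all scales (27.0 ± 1.14 to 33.1 ± 1.23 TPM).

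**Figure D4:**
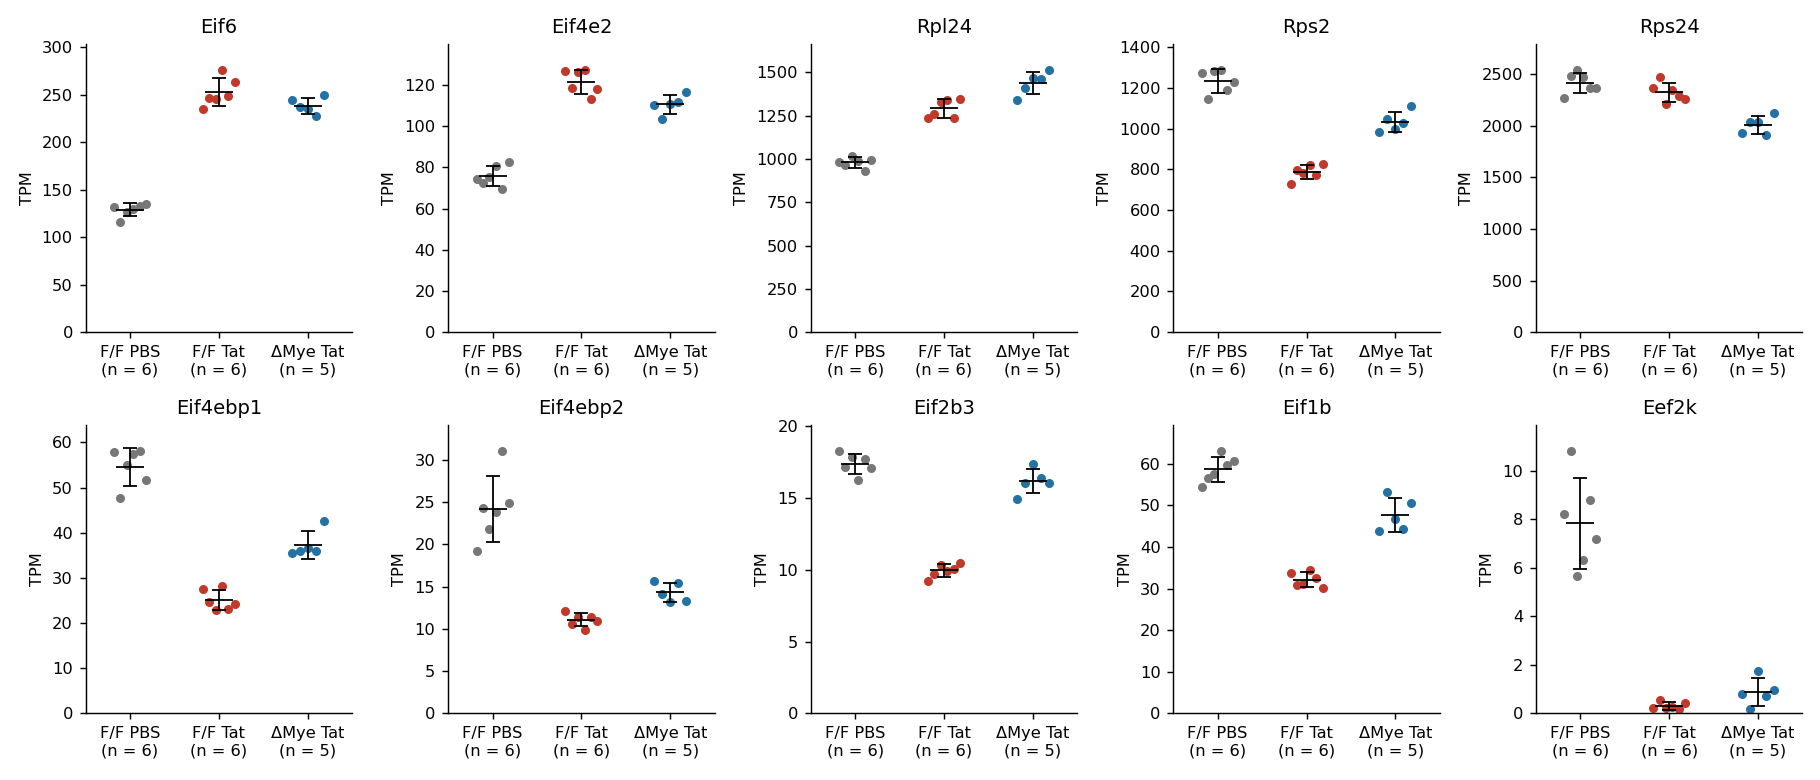
TPM of 10 members in each library (vertical axes start at 0) for F/F PBS, F/F Tat and ΔMye Tat. Points are libraries and bars are the mean ± SD; Eif6, Eif4e2 and Rpl24 are higher in both Tat groups than in F/F PBS, while Eif4ebp1, Eif2b3 and Eif1b are lowest in F/F Tat and intermediate in ΔMye Tat.

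Genes that act with the ribosome were counted from lists outside the symbol rule. The shares to read them against are those of all genes, of which 67.6% fell and 17% rose as deposited, and 45.8% fell and 26.7% rose against the block. Rpsa, Rack1 and Fau, which encode 40S proteins under other symbols, fell with Tat as deposited (log2 -0.72, -0.42 and -0.35), and of these Rpsa also fell against the block (log2 -0.30). Of the 22 ribosome biogenesis genes tested, 22 fell as deposited (median -0.76) and 14 fell and none rose against the block. After library scaling 7 of them fell and 3 rose (median -0.13), beside 38.1% and 37.1% of all genes. Among them Myc, the transcription factor that drives ribosome production, fell on all scales (15.3 to 6.15 TPM, group means) and Polr1b, a subunit of the polymerase that makes rRNA, also did (6.95 to 1.84 TPM). Of 7 genes for termination, recycling and rescue, 4 rose and 3 fell against the block, led by Denr, a re-initiation and recycling factor, at 53.7 and 179 TPM (log2 1.74 as deposited). Of the 6 eIF2 kinase and phosphatase genes, 3 rose and 3 fell as deposited. Eif2ak2, the double-stranded RNA-activated and interferon-induced kinase PKR, rose from 23.2 to 69.3 TPM, and Eif2ak3 (7.03 to 2.09 TPM) and Eif2ak4 (5.55 to 1.93 TPM), the kinases PERK and GCN2, fell on all scales. Of 7 genes for poly(A)-binding proteins and TOP regulators, 2 rose and 5 fell as deposited (median -0.47). Against the block 2 rose and 2 fell. The 2 that rose as deposited were Larp1, which binds TOP mRNAs and represses their translation (47.1 to 102 TPM), and Pabpc1, the main poly(A)-binding protein (381 to 449 TPM). Of 10 mTORC1 pathway genes none rose and 7 fell as deposited, near the share of all genes, and 3 rose and 4 fell after library scaling. Those that fell as deposited included Rps6kb1, an S6 kinase (8.0 to 2.78 TPM) and Deptor, an mTOR inhibitor (1.74 to 0.0506 TPM). Deptor passed the expression filter through F/F PBS alone, so its difference was built into its selection.

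Ribosomal protein genes differed between ΔMye Tat and F/F Tat less often than all genes on TPM as deposited. In ΔMye Tat against F/F Tat, 18 of the 82 rose, 1 fell and 63 were not called on TPM as deposited, with a median of 0.07, beside 38.8% of all genes higher and 8.87% lower and an all-gene median of 0.22. After library scaling the split turned to 1 higher and 19 lower (16.4% and 18.8% of all genes, median -0.14), so the direction of the block between these groups depended on the scale. The 19 became 29 without ΔMye Tat library 23, and 12, 9, 12, 9 and 8 without F/F Tat library 9, 10 or 12 or ΔMye Tat library 19 or 22. Against their own block 4 rose and 7 fell (21.8% and 10.6% of all genes).  Both contrasts use the same F/F Tat libraries, so their values are not independent.

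**Figure D5:**
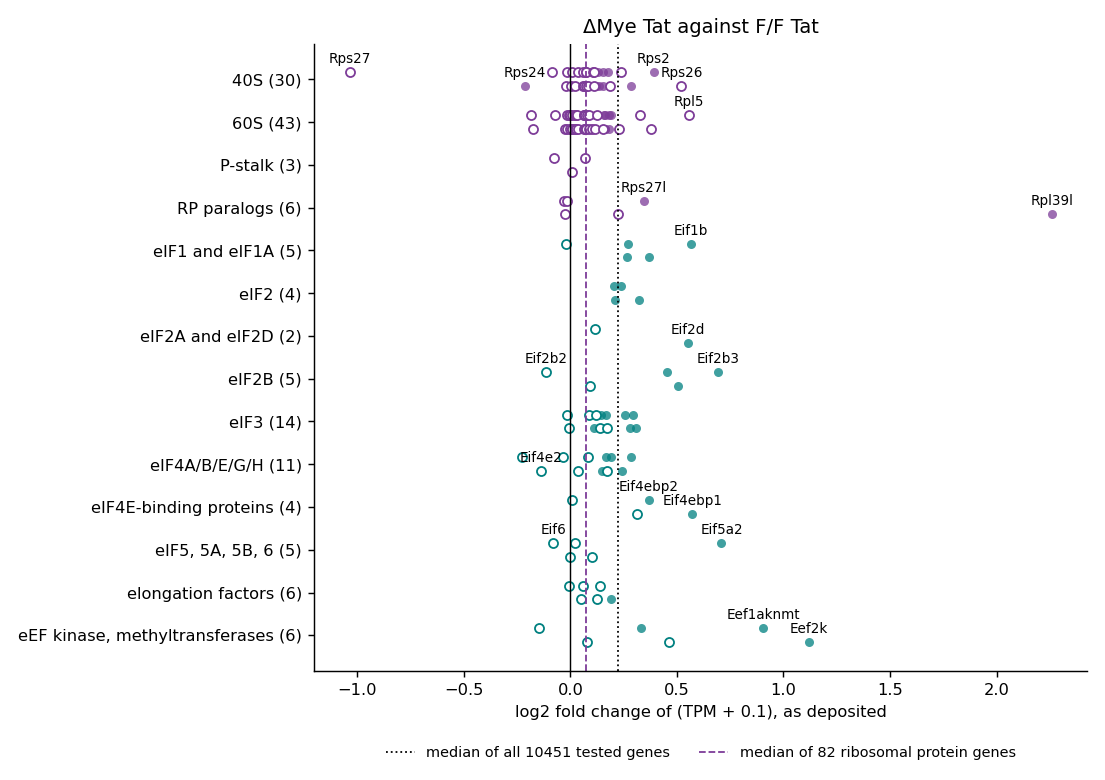
Log2 fold change of TPM + 0.1 as deposited, ΔMye Tat against F/F Tat (horizontal axis), for the 144 tested members grouped by role (vertical axis). Filled points have an adjusted p under 0.01; ribosomal proteins (purple) lie near 0.07 apart from Rpl39l at 2.26 and Rps27 at -1.04, and the filled factor points (green) all lie above 0.

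Rpl39l and Rps24 were the ribosomal protein genes that differed on all 3 scales. Rpl39l, a paralog of Rpl39 best known from the testis, was 0 to 1.06 TPM in F/F Tat, 0.263 to 1.10 TPM in F/F PBS and 2.12, 1.79, 1.81, 2.27 and 3.07 TPM in ΔMye Tat, with no overlap (log2 2.26 ± 0.469, adjusted p = 4.3e-04). It was the only member past 3-fold in this comparison, where 0.44% of all genes were called higher and 0.316% lower at that size. Rpl39l reached 1 TPM in all 5 ΔMye Tat libraries and in 2 of the 12 others, so it passed the expression filter through ΔMye Tat and a difference was built into its selection. Rpl3l, the muscle paralog of Rpl3, was listed at no more than 0.339 TPM in any library and was not tested. Rps24 was 2214 to 2475 TPM in F/F Tat and 1927, 2034, 2037, 1910 and 2119 TPM in ΔMye Tat, with no overlap (log2 -0.21 ± 0.0351, adjusted p = 4.1e-05). Over all genes, 16.1% rose and 8.87% fell on all 3 scales. Rps2, Rps27l and Rps19 rose as deposited and against the block, but were not called after library scaling. Rps2, a 40S protein at the mRNA entry, was 728 to 824 TPM in F/F Tat and 985, 1046, 998, 1027 and 1111 TPM in ΔMye Tat (log2 0.39 ± 0.0392, adjusted p = 9.4e-08). Rps27l, a p53-inducible paralog of Rps27, was 300 ± 10.3 and 380 ± 15.3 TPM (log2 0.34, adjusted p = 2.8e-08). Rps27 itself ranged from 32.2 to 323 TPM in F/F Tat and from 2.86 to 269 TPM in ΔMye Tat and was not called.

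The factors had medians between those of the ribosomal proteins and of all genes in ΔMye Tat against F/F Tat. On TPM as deposited 32 of the 62 rose and none fell (the fits that left out 1 library gave 0 to 2 lower), with a median of 0.17, beside 38.8% and 8.87% of all genes and an all-gene median of 0.22. On the ribosome-relative scale 12 rose and 3 fell with a median of 0.07, beside 21.8% and 10.6% of all genes and an all-gene median of 0.12. After library scaling 6 rose and 14 fell with a median of -0.04, beside 16.4% and 18.8% of all genes and an all-gene median of 0.01. The 6 that rose on all 3 scales were Eif2b3, Eif1b, Eif4ebp1, Eif2d, Eif5a2 and Eef1aknmt, and each of them fell with Tat in F/F macrophages on all scales. The F/F Tat libraries enter both comparisons with opposite sign, which favours opposite directions, and the share of all genes with both calls was not counted. For Eif5a2 and Eef1aknmt no F/F Tat library reached 1 TPM. Eif2b3 was 16.2 to 18.2 TPM with a median of 17.4 in F/F PBS, 9.23 to 10.5 TPM with a median of 9.97 in F/F Tat, and 14.9, 16.1, 17.3, 16.4 and 16.1 TPM in ΔMye Tat. F/F Tat was below both other groups without overlap, and ΔMye Tat exceeded it by a log2 difference of 0.69 ± 0.0516 (adjusted p = 1.6e-09). Eif4ebp1 was 35.5, 36.1, 36.5, 35.9 and 42.7 TPM in ΔMye Tat, between the other groups (log2 0.57 ± 0.0681, adjusted p = 9.2e-07). Eif1b was 43.8, 53.3, 46.8, 44.2 and 50.5 TPM in ΔMye Tat, against 30.1 to 34.5 TPM for the F/F Tat libraries, and Eif2d was 9.06, 7.97, 7.95, 7.97 and 8.18 TPM against 4.75 to 6.59 TPM. Eif4ebp2 rose as deposited (13.2 to 15.6 TPM in ΔMye Tat, adjusted p = 0.0022) and was not called on the other scales. Eef2k was called higher as deposited (log2 1.12 ± 0.345, adjusted p = 0.0092), with overlap, and lost the call in 14 of the 17 fits that each left out 1 library and on both other scales.

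The 3 factors below the ribosomal protein block in ΔMye Tat were Eif6, Eif4e2 and Eef1akmt4, which all rose with Tat in F/F macrophages. The shared F/F Tat libraries favour such opposite directions here too. Eif6 was 238 ± 8.41 TPM in ΔMye Tat against 252 ± 14.7 in F/F Tat (SD, n = 5 and 6), was not called as deposited (log2 -0.08 ± 0.0434, adjusted p = 0.12), and was 0.18 lower relative to the block (adjusted p = 0.0010). Eif4e2 was 111 ± 4.65 against 122 ± 5.90 TPM, with log2 differences of -0.14 as deposited (adjusted p = 0.016) and -0.24 relative to the block (adjusted p = 5.9e-04). Both stayed above all F/F PBS libraries. Rpl24, the ribosomal protein that rose most with Tat, was higher in ΔMye Tat than in F/F Tat as deposited (log2 0.16) and did not differ detectably from the block (log2 0.06, adjusted p = 0.13).

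Of the lists outside the symbol rule, 14 of 22 ribosome biogenesis genes were higher in ΔMye Tat and none lower as deposited, and 6 were higher and none lower relative to the block. After library scaling 5 were higher and 1 lower. Of all genes, 38.8%, 21.8% and 16.4% were higher on these scales and 8.87%, 10.6% and 18.8% lower. Polr1b (1.84 to 3.47 TPM, group means) and Rrs1, a 60S assembly factor (28.7 to 48.4 TPM), rose on all scales. Eif2ak2 fell on all scales, from 69.3 to 52.4 TPM. Of the mTORC1 pathway genes 4 were higher as deposited and none relative to the block. Markers of other cells also differed between these groups. All 4 tested of 5 T cell markers were higher in ΔMye Tat on all scales, and the 5 summed to 6.78 to 9.17 TPM, against 1.82 to 2.95 in F/F Tat and 3.20 to 7.85 in F/F PBS. No F/F Tat library reached 1 TPM for any of the 4 tested. Cd3d, Cd3e and Cd8a passed the expression filter only with ΔMye Tat libraries, so a difference was built into their selection. Neutrophil markers, nearly all S100a8, summed to 87.1 to 105 TPM against 65.4 to 77.6 in F/F Tat. Of the 3 tested, 1 was higher as deposited and relative to the block, and none was called after library scaling. S100a9 had a mean of 0.716 TPM in ΔMye Tat against 0.842 for F/F Tat, and Camp 2.31 against 1.86. Ly6g did not exceed 1.28 TPM in any library, and Ngp was listed at 0 in every library. B cell, NK cell, mast cell and eosinophil, and mesothelial sums were at or under 33.0 TPM in every library. The 6 macrophage markers were present in every library and summed to 3544 to 3923 TPM (F/F PBS), 2293 to 2525 TPM (F/F Tat) and 2541 to 2714 TPM (ΔMye Tat), with no overlap. With Tat 5 of them fell and 1 rose as deposited, and 2 fell and 2 rose after library scaling. Csf1r, the receptor for the growth factor M-CSF, was 381, 64.0 and 104 TPM (group means in the same order). The part of other cells in the differences above was not tested, and fewer cells of a type and less RNA per cell cannot be told apart.

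For the deletion the order of the classes by spread depended on the level of the genes and on the measure. Of the 82 ribosomal protein genes, 72 (87.8%) were within 0.25 log2 units of their own median, compared with 48 of 62 factors (77.4%) and 55% of all genes. Among genes with a mean of at least 100 TPM the order by this share turned, at 71 of 78 ribosomal protein genes (91.0%), 25 of 25 factors (100%) and 60.7% of all such genes. By quartiles it did not turn, since these were 0.006 and 0.133 for the ribosomal protein genes and 0.020 and 0.169 for the factors. In every library the median ribosomal protein gene was 3.88 to 4.25 log2 units above the median factor gene, with means of 4.09 ± 0.0334 (F/F PBS), 4.14 ± 0.0964 (F/F Tat) and 4.03 ± 0.140 (ΔMye Tat), and these ranges overlapped.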

How the data were processed

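RNA-Seq was performed by the study on 17 libraries, grouped by their labels. The authors quantified reads with Salmon against the Ensembl annotation of GRCm38 (mm10 in the submitters' notes; versions are not given in the sources used here) and deposited TPM by gene symbol. Their own comparison, TMM with a likelihood ratio test in edgeR, was not repeated. TPM hold no counts, so depth is unknown, and no scaling between libraries is stated. Of the 21683 rows, 26 carry a symbol turned into a date, none of them a member. The labels place cell collection 3 days after thioglycollate and the methods 4 days.

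The 10451 genes that reached 1 TPM in 5 or more libraries entered a limma fit (version 3.58.1, R 4.3.3) of log2(TPM + 0.1), with the 3 groups together (14 residual degrees of freedom), trended eBayes and Benjamini-Hochberg adjustment. Fold changes are on this log2 scale. Scale factors were medians of ratios to the geometric mean over 11246 genes above 0 in all libraries. The fit was tested on simulated data. Members, lists and named genes were chosen with earlier results of these data known. Named genes were, for ribosomal proteins and for factors, the 5 highest and 5 lowest called in each comparison, plus a list of reference members and Ikbkb. Lists are described by counts and medians, without a test of the list. No 2 libraries were duplicates: within groups, log2 TPM correlated at 0.991 to 0.993 across genes. Shared 31-base words and coordinates came from GENCODE M21 transcripts, and promoters from RefSeq. Alternatives were a pseudocount of 1, no filter, a filter at 5 TPM, only the 2 groups compared, each library left out and, added after seeing the data, other gene sets for scaling and these settings on the other scales. Some items are not reported here. Python 3.11.15, numpy 2.4.6, pandas 2.3.3 and matplotlib 3.10.9 were used.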

Additional observations from a re-analysis of the deposited data

Results flagged for a closer look

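In each group of 5 or 6 libraries the highest and lowest values of the named members and of the class sums were compared with the rest, and 8 of the 138 groups compared (5.8%) held a value far from the others. Chance gives about 1 in 20 groups, so this is near the number chance gives. In F/F PBS, Rplp0 was 1346 TPM in library 2 (nearest 1398) and Eif4e was 119 TPM in library 1 (nearest 107). In ΔMye Tat, library 23 held high values of Eif4ebp1 (42.7 TPM, nearest 36.5) and of Rps27l (407 TPM, nearest 378), both still with no overlap with F/F Tat. Library 20 held a high value of Eif2b5 (29.8 TPM, nearest 24.4), and library 19 one of Eif2d (9.06 TPM, nearest 8.18). Rpl3l was listed at 0.0789 TPM in F/F Tat library 11 and 0.158 TPM in ΔMye Tat library 20 and at 0 in the other libraries of these groups.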

How the results depend on the processing

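Scale was the choice that mattered most. On TPM as deposited, the Tat counts of 2 higher and 72 lower ribosomal protein genes became 41 and 4 with median-ratio scaling, and their median log2 fold change of -0.45 turned to 0.18; the 11 higher and 43 lower factors became 34 and 14 (median 0.27, from -0.36) with that scaling and 23 and 21 (median 0.0595) relative to the median ribosomal protein gene. For ΔMye Tat against F/F Tat, 18 higher and 1 lower ribosomal protein genes became 1 and 19 (median -0.14, from 0.07), and 32 higher and 0 lower factors became 6 and 14 (median -0.0435, from 0.17) with median-ratio scaling and 12 and 3 (median 0.0692) relative to the block. Called genes that reversed with Tat were Rps6 (0.31 with median-ratio scaling and 0.0941 relative to the block), Eif4a1 (0.47 and 0.25), Eif2b5 (0.34), Eif5a (0.30), Eef1a1 (0.27) and Eef2 (0.18 with median-ratio scaling). Scale factors set by genes that averaged 10 TPM or higher, added after seeing the data, gave 14 higher and 15 lower ribosomal protein genes with Tat (median -0.0133), a factor median of 0.0770, and for the deletion 3 higher ribosomal protein genes and a factor median of -0.0117. Without the expression filter, library-scaled counts were 1 lower ribosomal protein gene with Tat, a factor median of 0.21 and 9 lower ribosomal protein genes for the deletion. The filter at 5 TPM gave 1 lower factor as deposited and 0 higher ribosomal protein genes after scaling for the deletion, and a fit of only the groups compared gave 12 lower ribosomal protein genes after scaling and 7 higher factors relative to the block. With each library left out, the deletion gave 0 to 2 lower factors as deposited, 1 to 2 higher and 8 to 29 lower ribosomal protein genes after scaling, and 7 to 14 higher and 3 to 5 lower factors relative to the block, and Tat gave 2 to 6 lower ribosomal protein genes after scaling. The lowest and highest of these came without ΔMye Tat libraries 19, 22 and 23 for the deletion. The cause of these shifts was not tested. Pseudocount 1 kept every class count within 1.5 times. No paired analysis was possible because the groups share no replicate numbers. Depth is unknown, so counting error at low TPM, as for Rpl39l, Eef2k and Eef1aknmt, cannot be given.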
